A study of Mus musculus with 12 samples.

Results

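The choice of splice sites was examined in genes of synaptic adhesion: the neurexins Nrxn2 and Nrxn3 and the neuroligins Nlgn1, Nlgn2 and Nlgn3, 5 of the 18547 genes with an annotated junction. They were taken by symbol from 2 tables of splice junctions. Each distinct junction was counted once, which gave 593 junctions of 623056 in the first table and 353 of 442117 in the second. Most were rare and not annotated: 27 of 201 Nrxn2 junctions, 26 of 176 Nrxn3, 9 of 116 Nlgn1, 7 of 68 Nlgn2 and 8 of 32 Nlgn3 junctions of the first table join exons of the GENCODE annotation. In GRCm38 the genes lie at chr19:6418731-6544169 (Nrxn2, plus strand), chr12:88722876-90334935 (Nrxn3, plus), chr3:25426215-26332460 (Nlgn1, minus), chr11:69823122-69837784 (Nlgn2, minus) and chrX:101299168-101325963 (Nlgn3, plus).

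The libraries were made from polyadenylated RNA of wild-type NMRI mice, 2 for each of 6 groups. P49 and P10 were neocortex taken at postnatal days 49 and 10. The other groups were dissociated neocortical cells from E16.5 embryos, all kept in culture for 14 days: DRB (50 uM for 2 h) and untreated control cultures in the first table, and DRB with bicuculline (20 uM for 1 h) and DRB alone in the second. DRB stops transcription elongation. Bicuculline is an antagonist of GABA-A receptors, which raises the firing of the cultures. The first table held 50227274 to 75010048 spliced reads per library and the second 63255239 to 70788034. Nothing in the labels tells if the paired libraries are different animals or dishes; p-values therefore reflect the spread among these samples alone, which may be technical. The column names of the control, P49 and second DRB libraries were assigned to their groups by elimination. The names of both P10 columns carry the same number and differ only in an ending, so the P10 libraries may share a source. They are not the same counts: over gene sums of at least 50 reads, the chi-square per degree of freedom between the paired libraries was 16.47 for P10, above the 5.63 to 12.8 of the other groups, where counting noise alone gives about 1.

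Neurexins sit mainly on the presynaptic membrane and bind neuroligins, cerebellins, LRRTMs and other partners across the cleft. Each neurexin gene makes a long alpha form from an upstream promoter and a short beta form from an internal promoter, and both carry cassette exons. The cassette exon at splice site 4, in the last laminin-neurexin-sex hormone domain, is known to change which partners bind. Neuroligins are their postsynaptic partners: Nlgn1 is known mostly from excitatory and Nlgn2 from inhibitory synapses, and Nlgn3 from both. Neuroligin genes carry inserts at site A, and Nlgn1 has a further insert at site B, which is known to weaken binding to alpha-neurexins.

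The alternative segments shown are coding, and each has a length that is a multiple of 3. They are given 5′ to 3′ along the transcript from the GENCODE release 21 transcripts (GRCm38). The alternative segment is in capitals and the 10 transcript bases on each side are in lower case. These are bases of the neighbouring exons, except that those before the Nlgn1 site B segment are of its own exon. The splice site 4 exon of Nrxn3 (chr12:90199147-90199236) has 90 bases.
Nrxn3 splice site 4 exon: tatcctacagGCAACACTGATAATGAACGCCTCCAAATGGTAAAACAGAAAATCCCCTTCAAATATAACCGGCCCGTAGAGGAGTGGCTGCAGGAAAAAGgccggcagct

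Nrxn3 has 2 cassette exons of 27 bases, at chr12:89354453-89354479 and chr12:89517906-89517932, and Nrxn2 has one at chr19:6488784-6488810. The Nrxn2 exon matched the first Nrxn3 exon at 13 of 27 bases (48.1%), and the 2 Nrxn3 exons matched each other at 4 of 27.
Nrxn2 27-base exon: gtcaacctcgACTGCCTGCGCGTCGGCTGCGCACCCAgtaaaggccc
Nrxn3 first 27-base exon: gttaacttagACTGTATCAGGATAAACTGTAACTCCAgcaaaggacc
Nrxn3 second 27-base exon: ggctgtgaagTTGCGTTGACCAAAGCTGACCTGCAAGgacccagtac

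The site A exons lie at chr3:25920178-25920237 (Nlgn1), chr11:69830563-69830613 (Nlgn2), and chrX:101303072-101303131 and chrX:101307075-101307134 (Nlgn3, which has 2). The Nlgn1 exon was the same as the second Nlgn3 exon at 43 of 60 bases (71.7%) and as the first at 16 of 60 (26.7%). The Nlgn1 site B segment, chr3:25439865-25439891, is added by a second donor of the same exon.
Nlgn1 site A exon: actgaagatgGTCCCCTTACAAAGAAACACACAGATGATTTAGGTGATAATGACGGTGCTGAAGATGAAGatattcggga
Nlgn2 site A exon: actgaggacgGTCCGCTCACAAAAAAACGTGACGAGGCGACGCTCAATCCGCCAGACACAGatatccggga
Nlgn3 first site A exon: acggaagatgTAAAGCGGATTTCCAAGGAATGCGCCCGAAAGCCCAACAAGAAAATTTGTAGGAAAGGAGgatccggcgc
Nlgn3 second site A exon: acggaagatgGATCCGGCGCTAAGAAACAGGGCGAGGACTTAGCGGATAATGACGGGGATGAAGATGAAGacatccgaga
Nlgn1 site B segment: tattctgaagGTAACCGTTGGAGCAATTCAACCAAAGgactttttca

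The level of each gene was read from its annotated junctions, as CPM, the reads of the gene scaled to a common library size after TMM normalisation. Genes are not compared with each other on this scale, since a gene with more junctions collects more reads. Nrxn2 was lower and Nrxn3 higher at P49 than at P10. Nrxn2 had 375 and 378 CPM at P49, against 621 and 603 at P10, a log2 change of -0.70 ± 0.05 (SE; adjusted p = 7.4e-07). Nrxn3 had 136 and 146 CPM at P49, against 107 and 100 at P10 (log2 change 0.44 ± 0.06, adjusted p = 4.2e-05). In neither gene did the 2 ages overlap, and how common this is among all genes was not computed. Nlgn3 was lower at P49, at 33.2 and 34.5 CPM, against 42.9 and 43.3 at P10 (log2 change -0.35 ± 0.07, adjusted p = 0.0017). Nlgn2 was slightly lower at P49, at 150 and 156 CPM, against 174 and 172 at P10 (log2 change -0.18 ± 0.06, adjusted p = 0.027). That call was lost without the first P49 library, where its adjusted p was 0.132, and without the first P10 library. Nlgn1 did not pass the test, with 20.1 and 21.8 CPM at P49 and 23.6 and 22.04 CPM at P10 (log2 change -0.12 ± 0.08, adjusted p = 0.226). Changes of gene level were common between the ages: at an adjusted p (Benjamini-Hochberg) under 0.05, edgeR's quasi-likelihood test called 57.0% of all genes tested (28.2% higher and 28.8% lower), beside 4 of these 5 (1 higher and 3 lower).

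In the cultures, all 5 genes were higher after DRB than in control cultures and lower in control cultures than in P10 neocortex. Nrxn2 had 614 and 620 CPM in DRB cultures, against 347 and 392.1 in control cultures (log2 change 0.74 ± 0.05, adjusted p = 4.3e-07), and control cultures were 0.73 below P10 (log2 change -0.73 ± 0.05, adjusted p = 1.8e-07). The DRB level of Nrxn2 was thus near its P10 level. Nrxn3 had 89.9 and 96.0 CPM in DRB cultures and 65.2 and 68.6 CPM in control cultures (log2 change 0.47 ± 0.06). Nlgn1 had 25.1 and 23.3 CPM in DRB cultures and 15.8 and 17.2 CPM in control cultures (log2 change 0.55 ± 0.08). Nlgn2 had 151 and 163 CPM in DRB cultures and 106 and 120 CPM in control cultures (log2 change 0.47 ± 0.06). In each of these genes both DRB libraries stood above both control libraries. How common this is among all genes was not computed. Nlgn3 changed least, with 39.4 and 43.7 CPM in DRB cultures and 33.6 and 37.9 CPM in control cultures (log2 change 0.22 ± 0.07, adjusted p = 0.023). The Nlgn3 call was lost without the first control library, where the adjusted p was 0.205, and without the second DRB library. Between control cultures and P10 the log2 changes were -0.63 ± 0.06 for Nrxn3, -0.47 ± 0.08 for Nlgn1, -0.61 ± 0.06 for Nlgn2 and -0.27 ± 0.07 for Nlgn3. The Nlgn3 change did not pass without the first control library (adjusted p = 0.0769). DRB against control called 63.1% of all genes (29.9% higher and 33.2% lower) and control against P10 74.2% (37.1% in each direction), and the control libraries enter both comparisons. CPM is a share of a library's spliced reads, so a higher CPM after a block of transcription is higher relative to other transcripts.

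Markers of other cells moved with these groups, and their part in the results was not tested. The summed CPM of 5 neuron markers was 2621 to 2668 in DRB cultures and 1412 to 1464 in control cultures, and 5019 to 5097 at P49 and 3004 to 3083 at P10; none of the 5 was at 0 in any group. The 3 excitatory markers summed to 1373 to 1420 CPM in DRB cultures and 662 to 707 CPM in control cultures, and to 5511 to 5610 CPM at P49 and 3104 to 3201 CPM at P10. The 3 inhibitory markers summed to 709 to 720 CPM in DRB cultures and 465 to 483 CPM in control cultures, and to 672 to 718 CPM at P49 and 358 to 415 CPM at P10. Neuron markers of each kind were thus lowest in control cultures or at P10. The 4 astrocyte markers that were measured summed to 1333 to 1423 CPM in DRB cultures and 1524 to 1534 CPM in control cultures, and to 551 to 561 CPM at P49 and 634 to 671 CPM at P10; 1 of the 5 listed had no read at P49. The 3 endothelial and mural markers that were measured summed to 154 CPM in both DRB libraries, 579 to 717 CPM in control cultures, 64.6 to 71.9 CPM at P49 and 145 CPM at P10. The 4 oligodendrocyte markers summed to 90.6 to 107 CPM in DRB cultures and 48.5 to 59.9 CPM in control cultures, and to 2357 to 2412 CPM at P49 and 760 to 884 CPM at P10. The 3 microglia markers summed to 22.9 to 26.8 CPM in DRB cultures and 24.05 to 31.1 CPM in control cultures, and to 170.1 to 172 CPM at P49 and 181 to 195 CPM at P10. The 2 precursor markers summed to 84.9 to 89.1 CPM in DRB cultures and 112 to 120 CPM in control cultures, and to 74.0 to 75.8 CPM at P49 and 122 to 127 CPM at P10. In bulk RNA, fewer cells of a type and less RNA per cell cannot be told apart.

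**Figure D1:**
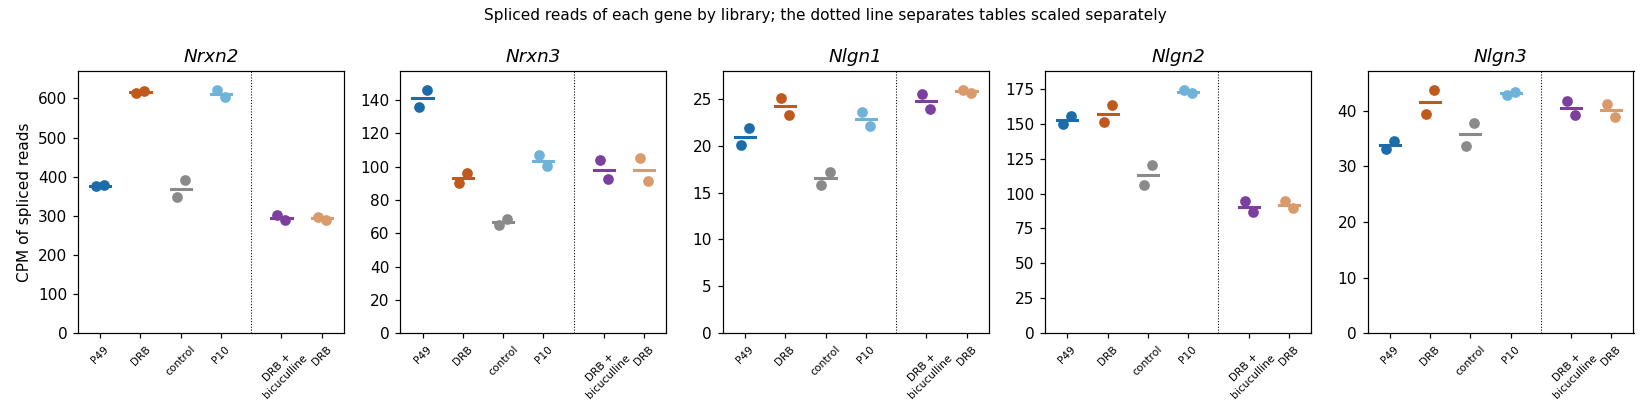
CPM of spliced reads of each gene (vertical axes, each from 0) in each library (points) of each group, with group means as bars; the dotted line separates the 2 tables, which were scaled separately. The DRB libraries of the first table stand above the control libraries in all 5 genes, which was not counted over all genes. Nrxn2 at P49 stands below P10.

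Within Nrxn2, the share of reads from the alpha part fell with age and that from the beta first exon rose. The use of an annotated junction was measured as its percentage of the reads of all listed annotated junctions of its gene. It was tested against the other listed junctions of that gene, which removes the gene's level. From here on, the log2 change of a junction or exon is that of its reads over the reads it was tested against. Log2 changes of gene levels are as above. Listed junctions join neighbouring exons only, so the alpha junction that passes over the beta first exon was not counted. These percentages are therefore not shares of transcripts. The junction from the first exon of the beta form (chr19:6498532-6504874) carried 8.29% and 8.38% of Nrxn2 junction reads at P49, against 5.35% and 5.45% at P10 (log2 change 0.67 ± 0.07, adjusted p = 9.7e-07). Upstream of the beta start, where the alpha form alone is spliced, 16 of 18 junctions fell and none rose, with a median log2 change of -0.50. At or downstream of it, 6 of 7 rose and none fell, with a median of 0.33. Not all of these calls held when 1 library was left out. The rise at chr19:6519328-6531267 was among those that did not hold, with a log2 change of 0.22 to 0.30 in these fits. Together the upstream junctions held 39.8% and 40.2% of Nrxn2 junction reads at P49, against 53.2% and 54.0% at P10. As a level the beta junction was no higher at P49, at 31.1 and 31.7 CPM, against 33.2 and 32.9 CPM at P10, while the upstream junctions summed to 149 and 152 CPM at P49, against 331 and 325 CPM at P10; these levels were not tested. The upstream junctions held 53.9% and 55.8% of the gene's reads in DRB cultures and 51.05% and 52.26% in control cultures, so that the P49 libraries stood apart from the other libraries of the first table. The shares of one gene add up to its whole, so a fall on one side of the beta start entails a rise on the other. Measured against its flanking junctions, the beta first exon had 39.6% and 41.2% of the flanking reads at P49, against 28.3% and 28.8% at P10 (log2 change 0.50 ± 0.06, adjusted p = 8.7e-07). Its own reads came almost wholly from the beta junction, at 752 of 756 in the first library of DRB with bicuculline. Its upstream flank is among the alpha junctions that fell, so the exon and junction results are not independent. Both beta calls held without each of the 8 libraries in turn.

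Over the 5 genes, 26 of 73 junctions tested were called between P49 and P10 (35.6%; 10 higher and 16 lower), beside 1.91% of all junctions (1.01% higher and 0.906% lower). Of the 26, 22 were Nrxn2 junctions, which are parts of the same alpha and beta transcripts and are not independent of one another. Without the first P49 library 16 were called.

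No such division was called in Nrxn3; the difference between the genes was not tested. Junctions upstream of its beta start held 59.9% and 62.2% of its junction reads at P49, against 60.3% and 57.2% at P10, and the 2 ages overlapped. Its beta junction (chr12:89813641-89976346) carried 1.72% and 1.31% at P49, against 1.45% and 1.89% at P10 (log2 change -0.14 ± 0.16, adjusted p = 0.902). Of 18 upstream junctions 4 rose, and of 8 at or downstream of the beta start none was called. The 4 belong to the second 27-base exon and to 2 rarely used exons near the start of the gene. The junction that joins the 2 rare exons to each other (chr12:88953617-88954810) had 28 and 30 reads at P49, 5 and 4 reads at P10, and none in any DRB or control library of the first table (log2 change between the ages 2.397 ± 0.41, adjusted p = 0.0021).

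**Figure D2:**
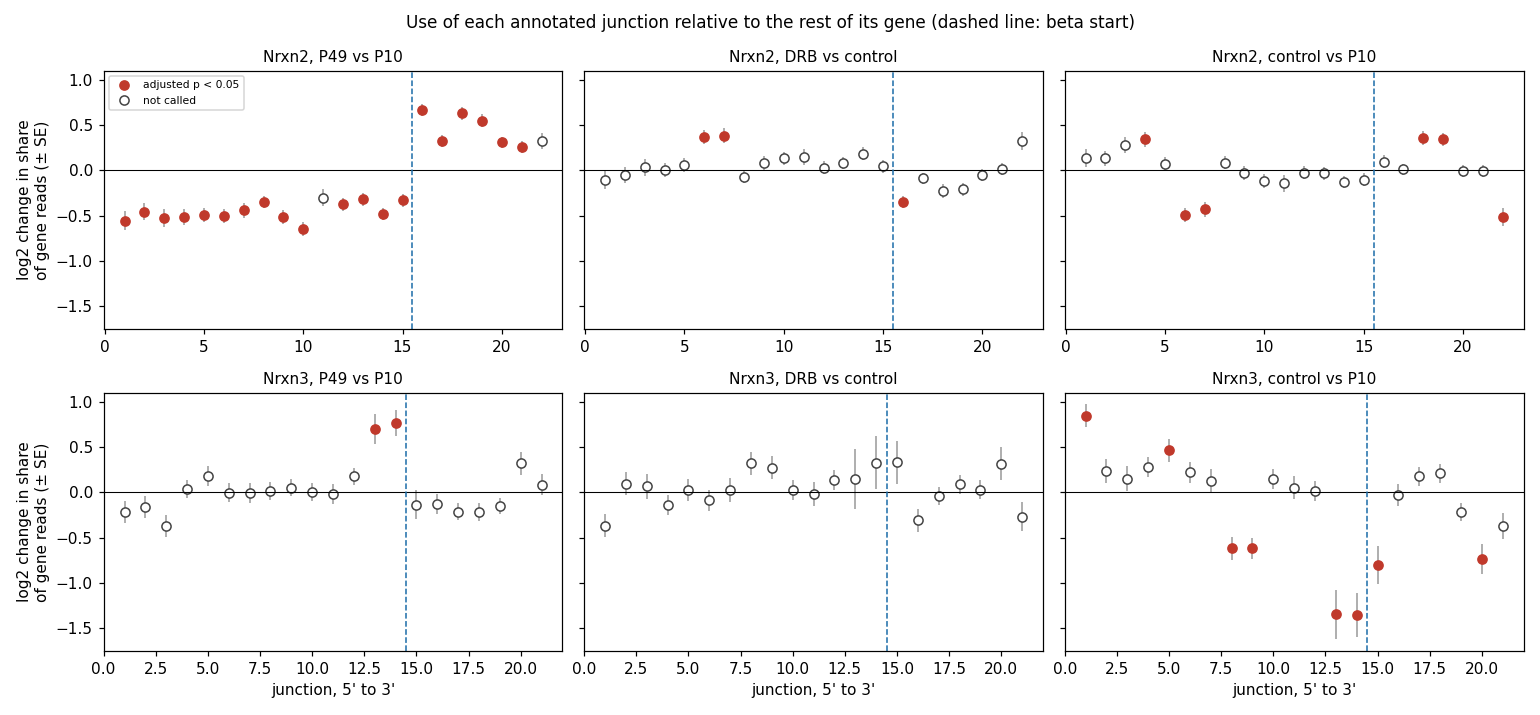
Log2 change of the use of each annotated junction relative to the rest of its gene (vertical axis, with SE), for Nrxn2 above and Nrxn3 below, in junction order 5′ to 3′ (horizontal axis); filled points passed an adjusted p of 0.05, the dashed line is the beta start, and junctions with a mean share under 0.5% are not drawn. In Nrxn2 at P49 against P10 the points lie below 0 left of the beta start and above 0 right of it; in Nrxn3 the called points at P49 against P10 lie left of it and above 0.

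The use of a cassette exon was measured by the reads of its own 2 junction pairs as a percentage of the reads of the pairs on either side. A pair holds all junctions listed between 2 neighbouring exons of the gene model, annotated or not. The value is not a share of transcripts, and can exceed 100% where the neighbouring junctions are read less. Between P49 and P10, 9 of 51 exons of the 5 genes were called (5 higher and 4 lower), beside 0.831% of all exons (0.446% higher and 0.384% lower). DESeq2 called 3 of the 51: Nrxn2 exon 18 just upstream of the beta start, the beta first exon, and the Nrxn2 splice site 4 exon. The others were exons 5, 6 and 17 of Nrxn3 (higher), exons 21 and 24 of Nrxn2 (lower), whose own or flanking junctions include those of the splice site 4 exon, and the Nlgn1 site A exon (lower). Exons 5 and 6 of Nrxn3 are the rarely used ones above, at 13.3% and 14.4%, and 8.16% and 8.46%, of flanking reads at P49, against 6.06% and 3.48%, and 1.90% and 1.59%, at P10. Exon 18 of Nrxn2 stood at 32.0% and 36.8% at P49, against 46.2% and 48.2% at P10 (log2 change -0.46 ± 0.07, adjusted p = 3.9e-05). The change turned to 3.05 with its downstream junction alone and to 0.14 with the upstream flank alone, neither of them called. Its downstream flank is the junction of the beta first exon, which rose, so this fall is not independent of the beta result. Its own reads came almost wholly from its upstream junction, at 1093 of 1096 in the first library of DRB with bicuculline. Taking 1 of an exon's own junctions or flanks alone also turned the direction, with no call, for exons 21 and 24 of Nrxn2 and exons 5 and 17 of Nrxn3. The count fell to 3 without the second P49 library and to 5 without the first P49 or the first P10 library.

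The splice site 4 exon of Nrxn2 was used more at P49 and in control cultures than at P10, and that of Nrxn3 passed in no comparison. In Nrxn2 the exon stood at 39.5% and 42.5% of flanking reads at P49, against 32.9% and 34.1% at P10 (log2 change 0.29 ± 0.05, adjusted p = 0.0017). It was at 44.2% and 40.4% in control cultures, also above P10 (log2 change 0.33 ± 0.06, adjusted p = 0.00019), and at 38.6% and 37.8% in DRB cultures. The 2 P10 libraries were the lowest of the 8. The change of DRB from control cultures did not pass (log2 change -0.14 ± 0.06, adjusted p = 0.323). Without the second P49 library the call between the ages was lost (adjusted p = 0.143), and the call against control cultures held without each library. In Nrxn3 the exon stood at 69.1% and 68.4% at P49, against 76.8% and 68.8% at P10 (log2 change -0.08 ± 0.08, adjusted p = 0.981). It was at 99.1% and 95.2% in DRB cultures and 87.8% and 90.7% in control cultures. Both kinds of culture stood above both ages of tissue, but neither the change of control from P10 (log2 change 0.30 ± 0.09, adjusted p = 0.102) nor that of DRB from control (0.12 ± 0.09, adjusted p = 0.733) passed.

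The second 27-base exon of Nrxn3 was used far less in cultures than in tissue. It stood at 55.3% and 63.2% of flanking reads at P49, 14.4% and 19.4% in DRB cultures, 15.3% and 16.04% in control cultures, and 36.9% and 44.4% at P10. Control cultures were far below P10 (log2 change -1.37 ± 0.20, adjusted p = 3.7e-05), a call that held without each library. The rise at P49 over P10 passed (log2 change 0.54 ± 0.13, adjusted p = 0.0375) but was lost in 6 of the 8 fits that left out a library, with an adjusted p up to 0.502, and in DESeq2, and with the downstream flank alone the direction turned (log2 change -0.81, adjusted p = 0.981). This is exon 17 of the gene model. Its own 2 junctions, whose reads also make up the exon's value, carried 1.95% and 2.70%, and 1.81% and 2.05%, of Nrxn3 reads at P49. At P10 they carried 1.23% and 1.64%, and 1.11% and 1.18%. DESeq2 called the rise between the ages of the downstream junction (adjusted p = 0.0045) but not of the upstream one (adjusted p = 0.137). With 1 library left out, the log2 change ran from 0.45 to 0.93 for the upstream junction and from 0.67 to 0.85 for the downstream one. In control cultures the 2 junctions carried 0.51% and 0.61%, and 0.46% and 0.44%. Against P10 the change in control cultures was -1.35 for each (SE 0.27 and 0.24, adjusted p = 0.003 and 0.00085); the upstream one was lost without the first control library (adjusted p = 0.067).

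The first 27-base exon of Nrxn3 was also used less in control cultures than at P10, at 65.0% and 70.1% of flanking reads, against 107% and 117% at P10 (log2 change -0.72 ± 0.12, adjusted p = 0.00011). It stood at 115% and 113% at P49, with no call against P10 (log2 change 0.03 ± 0.10), and at 86.0% and 76.2% in DRB cultures, with no call against control (log2 change 0.26 ± 0.12, adjusted p = 0.47). The 27-base exon of Nrxn2 stood at 62.1% and 58.4% at P49, 69.3% and 62.9% in DRB cultures, 61.2% and 63.2% in control cultures and 68.5% and 65.5% at P10, and no comparison passed.

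Other Nrxn2 exons changed in control cultures. The 72-base exon at chr19:6450528-6450599 stood at 117% and 108% of flanking reads in control cultures, against 88.6% and 82.6% at P10 (log2 change 0.39 ± 0.08, adjusted p = 0.0025), a call lost without the first control library (adjusted p = 0.11) and without the second P10 library. With the upstream flank alone its direction turned (log2 change -0.11, adjusted p = 0.817). Its downstream flank is the upstream junction of the 24-base exon below, which was lower in control cultures. The 2 results are therefore not independent. The 30-base exon just upstream, at chr19:6448255-6448284, stood at 72.6% and 76.3% in control cultures and 64.1% and 65.6% at P10, and did not pass (log2 change 0.20 ± 0.08, adjusted p = 0.348). A 24-base exon between chr19:6455281-6463823 and chr19:6463848-6472257 was read less in control cultures than in DRB cultures or at P10. Its upstream junction carried 3.29% and 3.28% of Nrxn2 reads in DRB cultures, against 2.36% and 2.74% in control cultures (log2 change 0.37 ± 0.08, adjusted p = 0.013), and 3.50% and 3.62% at P10 (control against P10 -0.49 ± 0.08, adjusted p = 0.00027). Its downstream junction gave 0.38 ± 0.08 and -0.43 ± 0.08 in the same comparisons, and its change from P10 was lost without the first control library (adjusted p = 0.0719). The DRB calls on this exon were lost without the first control library (adjusted p up to 0.274) and without either DRB library.

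Between control cultures and P10, 16 of 73 junctions (6 higher and 10 lower; 21.9%) were called, beside 7.1% of all junctions (4.0% higher and 3.1% lower). By exon usage it was 6 of 51 (2 higher and 4 lower), beside 1.65% of all exons (0.815% higher and 0.836% lower), and DESeq2 also called 6. Without the first control library 8 junctions were called. Nrxn3 held 8 of the 16 and Nrxn2 held 7, among them both junctions of the splice site 4 exon, which were higher in control cultures (log2 change 0.36 ± 0.08 and 0.35 ± 0.07); both calls were lost without the first control library (adjusted p = 0.115 and 0.0768). Exons 20 and 24 of Nrxn2, whose own or flanking junctions include those of the splice site 4 or beta first exon, were lower in control cultures (log2 change -0.30 ± 0.06 and -0.38 ± 0.06, adjusted p = 0.0044 and 0.00017), and the exon 20 call was lost without the first control library (adjusted p = 0.277). The first alpha junction of Nrxn3 (chr12:88723187-88794503) carried 5.20% and 4.70% of its reads in control cultures, against 2.62% and 3.002% at P10 (log2 change 0.85 ± 0.13, adjusted p = 0.00011). The Nrxn3 beta junction carried 0.97% and 0.96% in control cultures, against 1.45% and 1.89% at P10 (log2 change -0.80 ± 0.21, adjusted p = 0.024), a call lost without either control library or the second P10 library (adjusted p up to 0.184).

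Few splice choices of these genes passed between DRB and control cultures. By junction usage 3 of 73 were called (2 higher and 1 lower; 4.11%), beside 2.0% of all junctions (1.01% higher and 0.999% lower); all 3 are Nrxn2 junctions. By exon usage 1 of 51 was called, lower after DRB, beside 1.03% of all exons (0.438% lower). By exon usage the members' share is near the background. The junction of the Nrxn2 beta first exon carried 4.53% and 4.65% of Nrxn2 reads in DRB cultures, against 5.509% and 5.996% in control cultures (log2 change -0.35 ± 0.07, adjusted p = 0.0071). The exon itself stood at 24.9% and 25.9% of flanking reads in DRB cultures, against 29.2% and 32.8% in control cultures (log2 change -0.29 ± 0.06, adjusted p = 0.010). These 2 calls were lost without the second control library (adjusted p = 0.139 and 0.288) and without either DRB library. The 2 junctions of the 24-base exon, above, are the other calls.

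**Figure D3:**
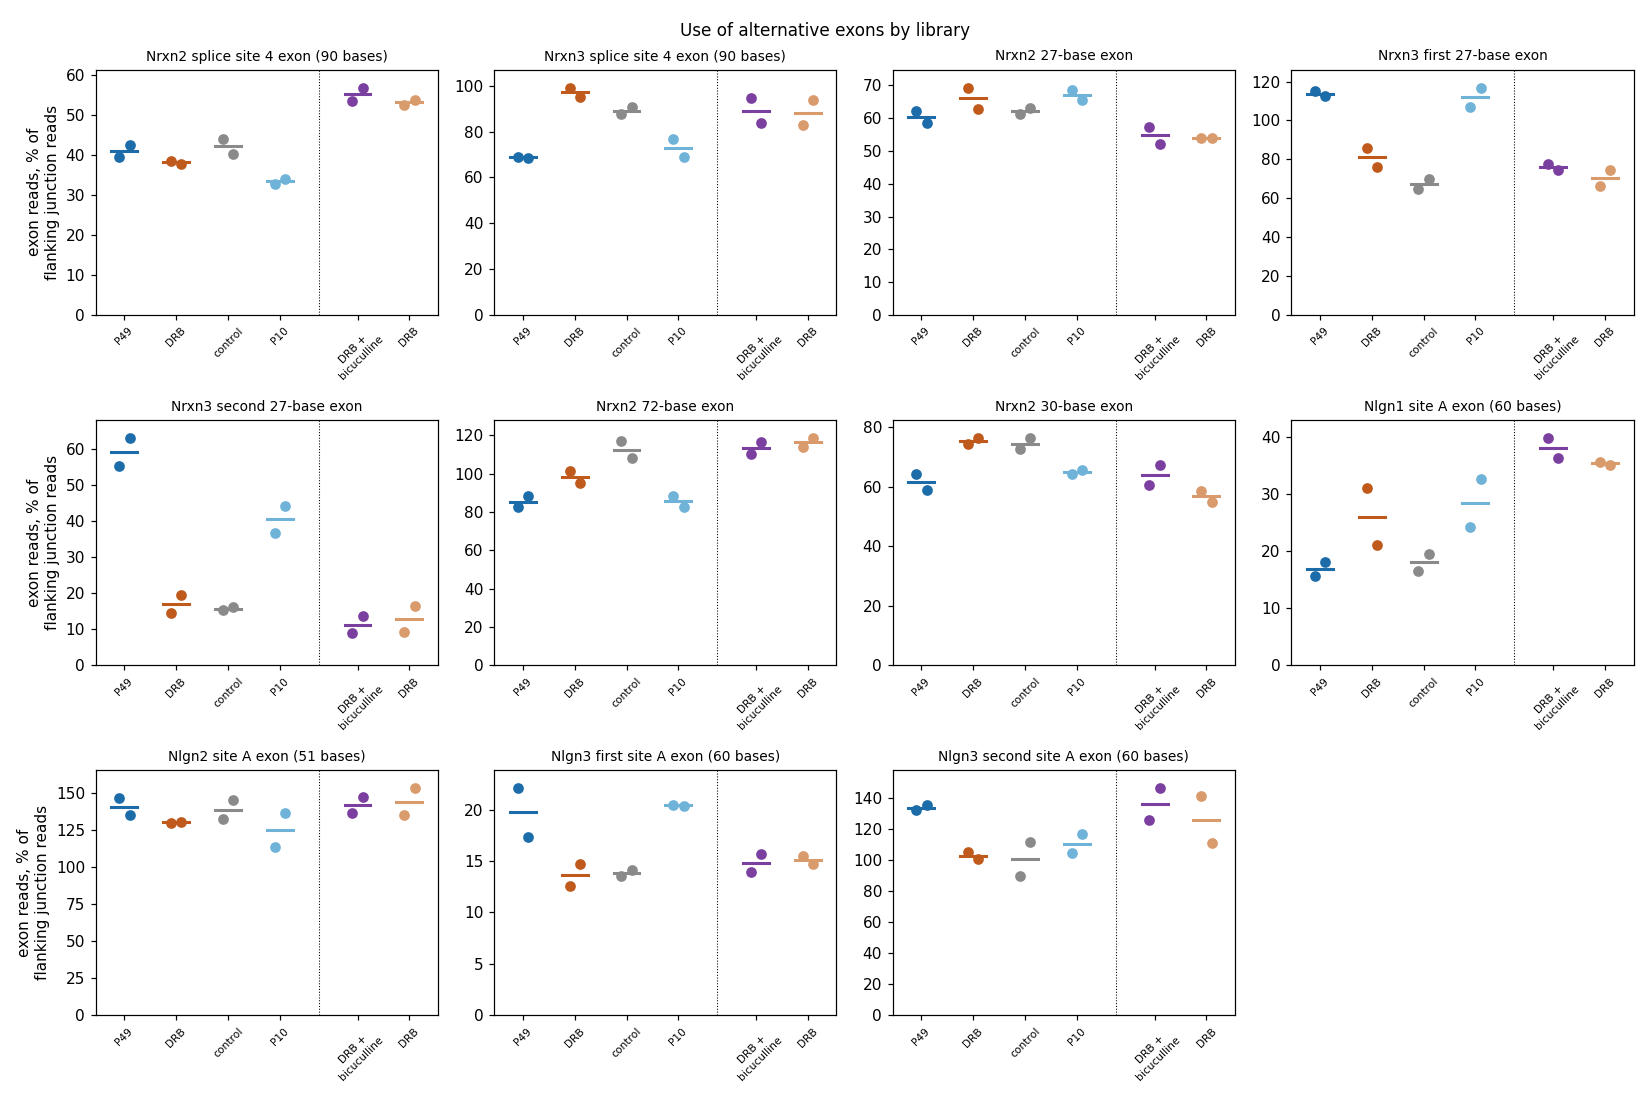
Reads of an exon's own junction pairs as a percentage of the reads of the flanking pairs (vertical axes, each from 0) in each library (points), with group means as bars. The dotted line separates the 2 tables. The second 27-base exon of Nrxn3 lies between 14.4% and 19.4% in the cultures of the first table and between 36.9% and 63.2% in tissue.

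Among the neuroligins, the site A exon of Nlgn1 was the only neuroligin exon called in any comparison. It stood at 15.6% and 18.0% of flanking reads at P49, against 24.3% and 32.6% at P10 (log2 change -0.75 ± 0.18, adjusted p = 0.034). Its junction pairs held 86 and 95 reads at P49 and 159 and 187 reads at P10. These reads include junctions that the annotation lacks. The annotated junction just upstream of the exon (chr3:25920238-26133241) had 21 and 36 reads at P49 and 38 and 46 at P10. No Nlgn1 junction passed by junction usage between the ages. The call was lost in 5 of the 8 fits that left out a library (adjusted p up to 0.416, without the second P10 library) and in DESeq2 (adjusted p = 0.775). The exon stood at 30.9% and 21.1% in DRB cultures and 16.4% and 19.5% in control cultures, with no call between them (log2 change 0.51 ± 0.20, adjusted p = 0.335). The site A exon of Nlgn2 ranged from 113% to 146% over the 8 libraries of the first table and passed in no comparison. Its flanking reads came almost wholly from the downstream side, at 1144 of 1195 in the first library of DRB with bicuculline. The junction that passes over this exon was not listed, so its inclusion was not measured directly. The second site A exon of Nlgn3 stood at 132% and 135% at P49 and 104% and 116% at P10 (log2 change 0.27 ± 0.11, adjusted p = 0.565). That value mainly compares 2 successive junctions downstream of the exon. In the first library of DRB with bicuculline they held 675 of its 726 own reads and 535 of its 578 flanking reads. The junction that reaches it over the first site A exon was not listed, so the value does not measure its inclusion. The first Nlgn3 site A exon was the minor one, at 22.1% and 17.4% at P49, 12.6% and 14.7% in DRB cultures, 13.6% and 14.1% in control cultures and 20.5% and 20.4% at P10. Both control libraries were below both P10 libraries, but the change did not pass (log2 change -0.56 ± 0.18, adjusted p = 0.145). No Nlgn2 or Nlgn3 junction passed by junction usage in any comparison.

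At site B of Nlgn1, the donor that leaves out the 27-base segment was the minor one. It took 1.60% and 4.31% of the reads at the shared acceptor at P49, 8.14% and 8.21% in DRB cultures, 11.9% and 8.48% in control cultures and 3.37% and 3.92% at P10. All 4 culture libraries stood above all 4 tissue libraries. As a share of Nlgn1 junction reads, it was higher in control cultures than at P10 (log2 change 1.48 ± 0.38, adjusted p = 0.018), on 22 and 19 reads in control cultures and 11 and 15 at P10. As a share of the reads at its acceptor it did not pass (log2 change 1.56 ± 0.54, adjusted p = 0.148), and the first call was lost without the first control library (adjusted p = 0.198) and without the first P10 library.

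Alternative donors and acceptors were also tested as shares of the reads at the site they share. Of 502 such shares of the 5 genes, 90 had enough reads to be tested in the first table, and 28 of these had a minor form of at least 5% in a group. None of the 90 was called by edgeR's quasi-likelihood test in any comparison, beside 1.07% of all shares between P49 and P10, 2.76% between DRB and control and 2.41% between control and P10. DESeq2 called 0 as well, and 12, 12 and 20 of the 90 had an unadjusted p under 0.05. Of skipping events, where one junction passes over others, 28 of 60 could be tested and none was called, beside 1.15%, 4.09% and 2.91% of all events. DESeq2 called 0 of the events, and 1, 3 and 5 had an unadjusted p under 0.05. Each row of the tables joins neighbouring exons. Junctions that pass over a whole annotated exon, such as splice site 4 or the beta first exon, were therefore not analysed here.

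Of the sites with reads for both forms, a nearly even choice was seen in Nrxn2, just downstream of its 27-base exon, where an acceptor that adds 9 bases took 39.5% and 41.2% of reads at P49, 48.2% and 49.2% in DRB cultures, 51.4% and 46.8% in control cultures and 48.7% and 49.2% at P10. P49 was lowest, but the change from P10 did not pass (log2 change -0.50 ± 0.29, adjusted p = 0.557). A far acceptor of the last Nrxn2 exon, 576 bases downstream of the near one, took 23.1% and 19.1% at P49, 17.6% and 18.9% in DRB cultures, 14.4% and 16.01% in control cultures and 19.9% and 20.5% at P10. As a share of all Nrxn2 junction reads its junction fell in control cultures relative to P10 (log2 change -0.51 ± 0.10, adjusted p = 0.0016). A Nrxn2 acceptor that removes 3 bases of the 72-base exon ranged from 8.42% to 12.5% over the 8 libraries, and a donor that adds 21 bases after the 24-base exon from 4.33% to 8.06%. In Nrxn3 a donor that adds 9 bases before the last exons ranged from 9.70% to 21.2%.

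Among minor forms of whole exons, an exon of Nrxn3 that the annotation lacks, between chr12:89187324 and chr12:89193045, took 5.01% and 5.29% at P49, 1.075% and 2.78% in DRB cultures, 2.35% and 0.50% in control cultures and 4.23% and 4.50% at P10. All tissue libraries stood above all cultures, and control against P10 had an adjusted p of 0.155. In Nlgn1, 3 events and 11 site shares had such minor forms, most of them among its 5′ exons at few reads. One acceptor of an exon that the annotation lacks ranged from 18.5% to 63.5% over the 8 libraries, with the widest gap between the 2 control libraries, at 56.4% and 18.5%.

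**Figure D4:**
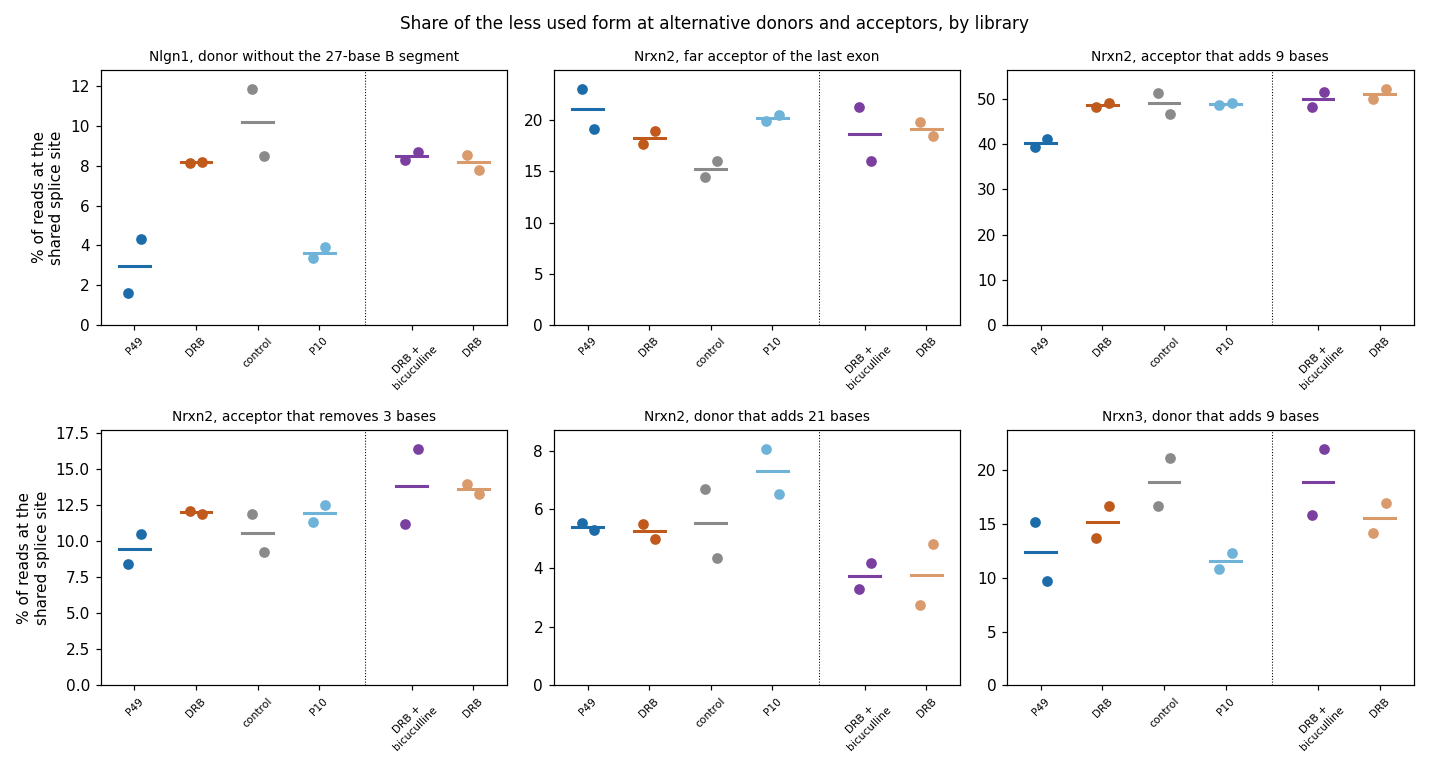
Share of the less used donor or acceptor among the reads at the shared splice site (vertical axes, in %, each from 0) in each library (points), with group means as bars; the dotted line separates the 2 tables. The Nlgn1 donor without the site B segment lies between 8.14% and 11.9% in the cultures of the first table and between 1.60% and 4.31% in tissue.

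With bicuculline on top of DRB, no level, junction or exon of the 5 genes passed an adjusted p of 0.05. The gene levels were 303 and 289 CPM for Nrxn2 in DRB with bicuculline, against 297 and 289 CPM in DRB alone, and 104 and 92.3 CPM for Nrxn3, against 105 and 91.2 CPM. The log2 changes of the 5 genes lay between -0.06 and 0.02, and edgeR called 0.21% of all genes. Of the members 0 of 69 junctions, 0 of 52 exons, 0 of 60 site shares and 0 of 18 skipping events were called by edgeR or DESeq2, with 5, 3, 1 and 0 at an unadjusted p under 0.05. Over all features, 0.00194% of junctions, 0.000954% of exons, 0.00297% of shares and 0.0% of events were called. The Nrxn2 splice site 4 exon stood at 53.6% and 56.9% of flanking reads in DRB with bicuculline, against 52.6% and 53.9% in DRB alone (log2 change 0.05 ± 0.05). The Nrxn3 splice site 4 exon stood at 94.5% and 83.8% with bicuculline, against 83.0% and 93.7% in DRB alone (log2 change 0.02 ± 0.08). The Nlgn1 site A exon stood at 39.8% and 36.2% with bicuculline, against 35.6% and 35.1% in DRB alone (log2 change 0.11 ± 0.13). The groups overlapped at both splice site 4 exons and did not at the Nlgn1 exon, and no comparison was made across the 2 tables.

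The splicing regulators and binding partners of these genes were described from 3 lists by the same gene-level test. Of all genes, 28.2% rose and 28.8% fell at P49 relative to P10. After DRB 29.9% rose and 33.2% fell, and in control cultures against P10 37.1% changed in each direction. Between the ages the counts of regulators below were near these shares. Of 20 splicing regulators tested, 6 rose and 6 fell between P49 and P10 (median log2 change -0.05, against 0.00 over all genes). Among the 4 with the smallest p, Mbnl1, a muscleblind protein, was higher at P49 (log2 change 0.71 ± 0.08), and Rbfox2 (-0.45 ± 0.05), Nova2 (-0.53 ± 0.06) and Elavl3 (-0.43 ± 0.05), all neuronal splicing or RNA-binding factors, were lower. After DRB, 14 regulators rose and 2 fell (median 0.34, against -0.03 over all genes). Ptbp1, a repressor of neuronal exons that is known to fall as neurons mature, was lower in DRB cultures (60.0 ± 1.9 CPM, against 141 ± 0.8 in control; SD, n = 2 each; log2 change -1.23 ± 0.05). Rbfox3 (1.00 ± 0.05), Rbfox1 (0.99 ± 0.06) and Celf4 (0.80 ± 0.04) were higher. Control against P10 ran the other way for most: 5 rose and 12 fell (median -0.36, against 0.01), with Rbfox1 (-1.85 ± 0.06), Rbfox3 (-1.54 ± 0.05) and Elavl4 (-1.20 ± 0.06) lower and Ptbp1 higher (1.46 ± 0.05). These 2 comparisons share the control libraries. The Khdrbs proteins, known to repress the splice site 4 exon, were singled out for that role after their values were seen. Khdrbs1 (-0.07 ± 0.04), Khdrbs2 (-0.02 ± 0.08) and Khdrbs3 (-0.04 ± 0.04) did not pass between P49 and P10. In DRB cultures against control the log2 changes were 0.18 ± 0.04, 1.19 ± 0.08 and 0.53 ± 0.04 in the same order, all called, and in control cultures against P10 they were 0.52 ± 0.04, -0.63 ± 0.08 and -0.61 ± 0.04, all called.

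The counts of partners stand beside the same shares of all genes, with 57.0% called in either direction between the ages. Of 21 extracellular partners tested, 4 rose and 7 fell at P49 relative to P10 (median -0.02), which is near that share. The smallest p was that of Mdga1, which is known to bind neuroligins and block neurexin. It had 16.505 ± 0.37 CPM at P49, against 54.3 ± 2.4 at P10 (log2 change -1.72 ± 0.07). The cerebellin Cbln1 (-1.25 ± 0.13) and the latrophilin Lphn2 (-0.47 ± 0.05) were lower, and the calsyntenin Clstn1 was higher (0.38 ± 0.04). Of 18 intracellular partners, 5 rose and 8 fell (median -0.10), with the syntenin gene Sdcbp (0.88 ± 0.05) and the scaffold Dlg1 (0.83 ± 0.05) higher and Apba1 (-0.85 ± 0.05) and Dlg2 (-0.66 ± 0.04) lower. After DRB, 14 extracellular partners rose and 2 fell (median 0.47), with Clstn3 (1.04 ± 0.05), Lphn1 (0.62 ± 0.05), Clstn1 (0.59 ± 0.04) and Lphn3 (0.57 ± 0.04) higher. Of the intracellular ones, 13 rose and 1 fell after DRB (median 0.69), with Lin7b (1.35 ± 0.06), Dlg2 (0.97 ± 0.04), Apba2 (0.95 ± 0.05) and the gephyrin gene Gphn (0.69 ± 0.04) higher. In control cultures against P10, 3 extracellular partners rose and 15 fell (median -0.80), with Lphn1 and Clstn3 lower (-1.16 ± 0.05 each), Clstn1 lower (-0.93 ± 0.04) and the dystroglycan gene Dag1 higher (1.30 ± 0.09). Of the intracellular ones, 3 rose and 14 fell (median -0.85), with Lin7b (-1.75 ± 0.06), Shank3 (-1.51 ± 0.05), Dlg3 (-1.13 ± 0.04) and Dlg2 (-1.07 ± 0.04) lower. Every other named change in these lists had an adjusted p under 0.05, and bicuculline gave no call in any list by edgeR, with 1, 1 and 0 genes at an unadjusted p under 0.05. After DRB the neuron, excitatory and inhibitory marker sums given above were all higher, as were the medians of the lists. In control cultures against P10 the neuron and excitatory sums were lower, as were the lists, but the inhibitory sum was higher. The part of these markers in the result was not tested.

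Over the 8 libraries of the first table, and out of 9303 genes whose mean log2 CPM reached 3, the genes whose level ran closest to each member were Cs and Gnb1 for Nrxn2 (Pearson's r 0.993 and 0.992), 1110008P14Rik and Ptk2 for Nrxn3 (0.997 and 0.996), Nipa1 and Bola2 for Nlgn1 (0.988 and 0.987), Prkab2 and Celf5 for Nlgn2 (0.991 and 0.986), and Ywhaz and Mrps24 for Nlgn3 (0.980 and 0.978). These are descriptions over 8 libraries in 4 groups, with no test.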

How the data were processed

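Per the labels, RNA was extracted with Trizol and sequenced as stranded polyadenylated libraries. The authors deposited 2 tables of splice junctions with counts of spliced reads per library, not normalised, per the file headers; the reads were aligned to mm10 (GRCm38) with STAR 2.4.0f1, per the submitters' processing notes, with the counting step not given in the sources used here. Another 72 per-library columns were not used. Column names give groups but no replicate number of the labels, so libraries are called first and second by column order. Some names of the DRB columns also carry TTX, which the labels do not mention. Junctions were matched to GENCODE release 21. Nlgn3 rows carry a joint symbol with a neighbour, and Nlgn3 was taken as the junctions inside its annotated gene.

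Reads of a junction or exon and its alternatives entered edgeR 4.0.16 (R 4.3.3, limma 3.58.1) as 2 columns per library, with a term per library and 1 inclusion term per group, and were tested by quasi-likelihood, two-sided, with Benjamini-Hochberg adjustment over the whole table. A feature needed 10 reads of each kind and a mean of 20 reads per library. Gene counts, summed over annotated junctions, were scaled by TMM after filterByExpr. The 8 libraries of the first table and the 4 of the second were fitted separately. Skipping events and site shares were the planned tests; because listed rows join neighbouring exons, tests of exon and junction usage were added after the data were seen. Members and lists were chosen with earlier results of these data known. Named list genes are the 4 with the smallest p per comparison, and named genes of similar level the 2 with the highest correlation. Alternatives were DESeq2 1.42.0, other read minimums, other junction sets and flanks, 2 groups alone and each library left out. All tests were tried on simulated counts. The sequence of the Nrxn2 splice site 4 exon is not reported here.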

Additional observations from a re-analysis of the deposited data

How the results depend on the processing

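Leaving out 1 library at a time moved the number of members called between 16 and 25 for junctions, 3 and 7 for exons and 3 and 4 for genes at P49 against P10. For DRB against control it ranged between 0 and 3, 0 and 1, and 4 and 5, and for control against P10 between 8 and 16, 4 and 7, and 4 and 5. Site shares stayed at 0 except 1 for control against P10 without either P49 library, and skipping events stayed at 0. With a minimum of 50 reads of each kind and a mean of 100, which tests fewer features, 2, 2 and 5 site shares were called in these 3 comparisons. With annotated junctions only it was 1 at P49 against P10 and 2 for control against P10, and with only the 2 groups compared 2 for DRB against control. Shares over all features were computed for the main setting alone. The counts under other settings therefore have no background beside them and are not read as results about these genes. The number of exons called at P49 against P10, which was 9, came to 4 with annotated junctions only, 3 with DESeq2, 5 with the upstream inclusion junction alone, 4 with the downstream one alone, 5 with the upstream flank alone and 4 with the 2 groups alone; the exon called after DRB was lost (0) with the upstream inclusion junction alone. 

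Some exons border rarely used ones, so that 1 of their flanks has few reads. Others have a called junction as a flank: the beta junction for Nrxn2 exon 18, and a junction of the 24-base exon for Nrxn2 exon 5. At P49 against P10 the log2 change turned with the upstream inclusion junction alone for Nrxn3 exon 5 (-0.90), with the downstream one alone for Nrxn2 exon 18 (3.05) and exon 21 (0.0060), with the upstream flank alone for Nrxn2 exon 18 (0.14), and with the downstream flank alone for Nrxn3 exon 17, its second 27-base exon (-0.81), and Nrxn2 exon 24 (0.61). For control against P10 it turned for Nrxn2 exon 5, its 72-base exon, with the upstream flank alone (-0.11) and for Nrxn2 exon 24 with the downstream flank alone (0.96). None of these reversed values passed the test, and the cause was not tested further.

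In the second table the letters a and b of the column names recur in both groups. With a replicate block on that letter 0 members were called in each of the 5 families of tests, as without it; deviations of the libraries lettered a correlated at r = 0.229 over 8986 genes, and with 2 pairs this does not show that the letters pair the libraries. No paired analysis was possible because the groups of the first table share fewer than 2 numbers in their column names, which also do not give the labels' replicate letters. Counts behind some values were low: the junction pairs of the Nlgn1 site A exon held 58 to 187 reads per library in the first table. The Nlgn1 donor without site B had 5 to 25. No smallest detectable change was computed.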
